A study of Mus musculus with 136 samples.

Results

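The 10 genes described here form the segmentation clock and the presomitic mesoderm program: Hes7, Lfng, Dll1, Dll3, Mesp1, Mesp2, Ripply2, Tbx6, Msgn1 and Nrarp. They were taken by symbol from a table of 47643 genes, and each symbol occurred once. In the presomitic mesoderm, the unsegmented tissue at the tail end of the embryo, Notch signalling switches on and off in a cycle, and with each cycle a pair of somites, the blocks that give rise to vertebrae and skeletal muscle, buds off at the anterior end. Dll1 is the ligand that activates the Notch receptor, Dll3 is a related protein that does not activate Notch in neighbouring cells, Lfng is a glycosyltransferase that modifies Notch, and Hes7 is the oscillating repressor at the core of the clock. Nrarp is a Notch target that dampens the pathway, Tbx6 and Msgn1 specify presomitic mesoderm, and Mesp1, Mesp2 and Ripply2 act where the next somite boundary is placed.

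Whole embryos and their visceral yolk sacs were collected at embryonic day 8.5 from NOD mice, a strain whose females become diabetic spontaneously. Dams were either diabetic, with blood glucose of 423 mg/dl or more when killed, or normoglycemic, with 105 to 164 mg/dl, and the embryos were of mixed sex on a chow-fed NOD background throughout. Embryos with 5 or 6 somite pairs numbered 17 from normal dams (10 litters) and 17 from diabetic dams (9 litters), and those with 7 to 9 somite pairs numbered 16 from normal dams (7 litters) and 16 from diabetic dams (6 litters), each with its own yolk sac. Litter D24M15 alone gave 9 of the embryos, among them 6 of the 9 diabetic embryos with 8 somite pairs. Each embryo was a 3′ tag library of 1330731 to 5658850 counted molecules, so 1 library held every tissue of the embryo, and fewer presomitic cells cannot be told apart from less RNA per cell.

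The promoters below are those of Hes7, Lfng and Nrarp, which are known to follow Notch activity, and of Dll3 and Tbx6, whose levels went together with Hes7 across embryos. Each line gives the 250 bases before the RefSeq transcription start (GRCm38.p6), read 5′ to 3′ in the direction of the gene. Capitals mark matches on either strand to TGGGAA, the core bound by the Notch effector RBPJ, to the E-box CACGTG, to CACGAG, a site used by Hes repressors, or to the T-box motifs TCACAC and AGGTGT.
Hes7, chr11:69120203-69120452, plus strand: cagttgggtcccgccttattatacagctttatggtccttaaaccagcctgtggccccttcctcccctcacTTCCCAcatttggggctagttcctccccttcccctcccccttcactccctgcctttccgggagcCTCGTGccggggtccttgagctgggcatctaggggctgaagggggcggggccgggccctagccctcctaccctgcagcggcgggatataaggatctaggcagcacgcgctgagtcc
Lfng, chr5:140607091-140607340, plus strand: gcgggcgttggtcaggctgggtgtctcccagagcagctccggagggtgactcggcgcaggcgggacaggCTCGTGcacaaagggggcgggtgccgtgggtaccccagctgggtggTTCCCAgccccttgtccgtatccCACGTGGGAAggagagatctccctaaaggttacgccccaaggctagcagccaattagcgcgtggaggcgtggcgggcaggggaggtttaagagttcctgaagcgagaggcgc
Nrarp, chr2:25180508-25180757, plus strand: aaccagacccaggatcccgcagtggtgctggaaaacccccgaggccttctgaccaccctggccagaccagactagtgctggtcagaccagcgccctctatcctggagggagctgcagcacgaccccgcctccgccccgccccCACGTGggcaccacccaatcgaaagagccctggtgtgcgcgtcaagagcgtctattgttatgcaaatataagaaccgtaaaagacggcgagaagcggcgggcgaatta
Dll3, chr7:28301786-28302035, minus strand: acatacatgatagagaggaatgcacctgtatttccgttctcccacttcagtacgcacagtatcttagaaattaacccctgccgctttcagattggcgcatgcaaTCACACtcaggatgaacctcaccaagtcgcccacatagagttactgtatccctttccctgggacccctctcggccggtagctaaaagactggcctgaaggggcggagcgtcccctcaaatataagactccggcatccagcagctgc
Tbx6, chr7:126781233-126781482, plus strand: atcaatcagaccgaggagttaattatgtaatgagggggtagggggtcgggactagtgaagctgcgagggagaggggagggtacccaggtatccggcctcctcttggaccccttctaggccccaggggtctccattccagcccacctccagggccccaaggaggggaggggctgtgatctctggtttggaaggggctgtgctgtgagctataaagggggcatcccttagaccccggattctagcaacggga

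The Lfng promoter held TGGGAA on both strands, and its forward match overlapped the E-box. The Hes7 promoter held TGGGAA 180 bases and CACGAG 116 bases before the start, both on the reverse strand. The only match for Nrarp was the E-box 108 bases before the start, that for Dll3 was a TCACAC 146 bases before it, and the upstream stretch of Tbx6 held none. In windows reaching from 250 bases before to 50 after the start, TGGGAA was present in 25.6% of all 32851 promoters and in those of 3 of the 10 genes (Hes7, Lfng and Msgn1), and CACGAG was present in 6.47% of all and in 3 of the 10 (Hes7, Lfng and Tbx6). CACGTG was found in 7.15% of all promoters, TCACAC in 14.5% and AGGTGT in 13.7%. These are matches of letters and not sites shown to be bound.

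The genes lay on 7 chromosomes of GRCm38 (GENCODE M21). Hes7 is at chr11:69120404-69124055 and Lfng at chr5:140607320-140615545, both on the plus strand, Dll1 at chr17:15367354-15376872 and Dll3 at chr7:28293553-28302238, both on the minus strand. Tbx6 is at chr7:126781483-126785560 (plus), and Mesp1 (chr7:79792241-79793788, minus) and Mesp2 (chr7:79810727-79813439, plus) are neighbours. Ripply2 is at chr9:87015537-87019917 (plus), Msgn1 at chr12:11208360-11208972 (minus) and Nrarp at chr2:25180758-25183339 (plus). The 3′ end of Nrarp, where the tags are counted, overlaps an antisense gene (Gm38287), and the strand setting of the counting is not given in the sources used here, so reads of the pair could not be separated.

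The library of embryo J of litter D24M15, a diabetic embryo with 8 somite pairs, stood apart before any comparison. It held 2926035 counts, but 0 of Tbx6, 2 of Hes7 and 7 of Dll3. In normalized counts (counts divided by the DESeq2 size factor of the library) it had 1.52 of Hes7, 5.32 of Dll3 and 0 of Tbx6, against 57.8 to 117 of Hes7, 32.1 to 109 of Dll3 and 11.3 to 42.6 of Tbx6 in the other 8 diabetic embryos of that somite number. Lfng was in their range at 141, and so was Dll1 at 21.3, while Nrarp was below their range of 33.2 to 79.3 at 25.1. Of the 8 genes listed for the tailbud, the progenitor zone that feeds the presomitic mesoderm, 5 were below each of the other 65 embryos (Cdx1, Cdx2, Cdx4, Nkx1-2 and Evx1); Cdx4 had 0 counts against a median of 154 normalized counts. None of the 13 forming-somite genes, 5 neural genes or 5 cardiac genes was below the other 65, and the mean log2 levels of the neural and cardiac lists were higher than in any of them (7.23 against at most 7.22, and 7.73 against at most 7.61). The reason was not tested, and the results below that turn on this embryo are also given without it, apart from those adjusted for the tailbud list mean.

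The members were detected at very different depths. Lfng, Dll3, Hes7, Nrarp, Dll1 and Tbx6 passed the filter on low counts and were tested; their median levels over the 66 embryos were 124, 95.7, 81.0, 47.1, 42.3 and 29.3 normalized counts, in that order. Tags are counted once per molecule at the 3′ end, so these levels do not scale with transcript length. Mesp2, Mesp1 and Ripply2, whose domains span little more than the next somite, had medians of 4.55, 3.0 and 2.71 and did not pass. Ripply2 had no count in 15 of the 66 libraries, Mesp1 in 3 and Mesp2 in 2. Msgn1 gave 11 counts in all, in 10 libraries. At that depth its level could not be compared between groups. In GENCODE M21 the gene spans 613 bases. Whether tags fell outside the annotated gene was not tested, so these counts need not reflect its expression.

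Hes7 stood at 18.4, 81.3 and 114 (lowest, median and highest) in the normal and at 28.6, 79 and 140 in the diabetic embryos with 5 or 6 somite pairs. With 7 to 9 somite pairs it stood at 31.3, 81.8 and 124 in the normal and at 1.52, 86.3 and 117 in the diabetic embryos. The 4 groups overlapped over almost their whole range. The edgeR log2 fold change, diabetic over normal, was 0.07 ± 0.19 (SE) at 5-6 and -0.09 ± 0.22 at 7-9 somite pairs (adjusted p = 0.876 and 0.816).

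**Figure D1:**
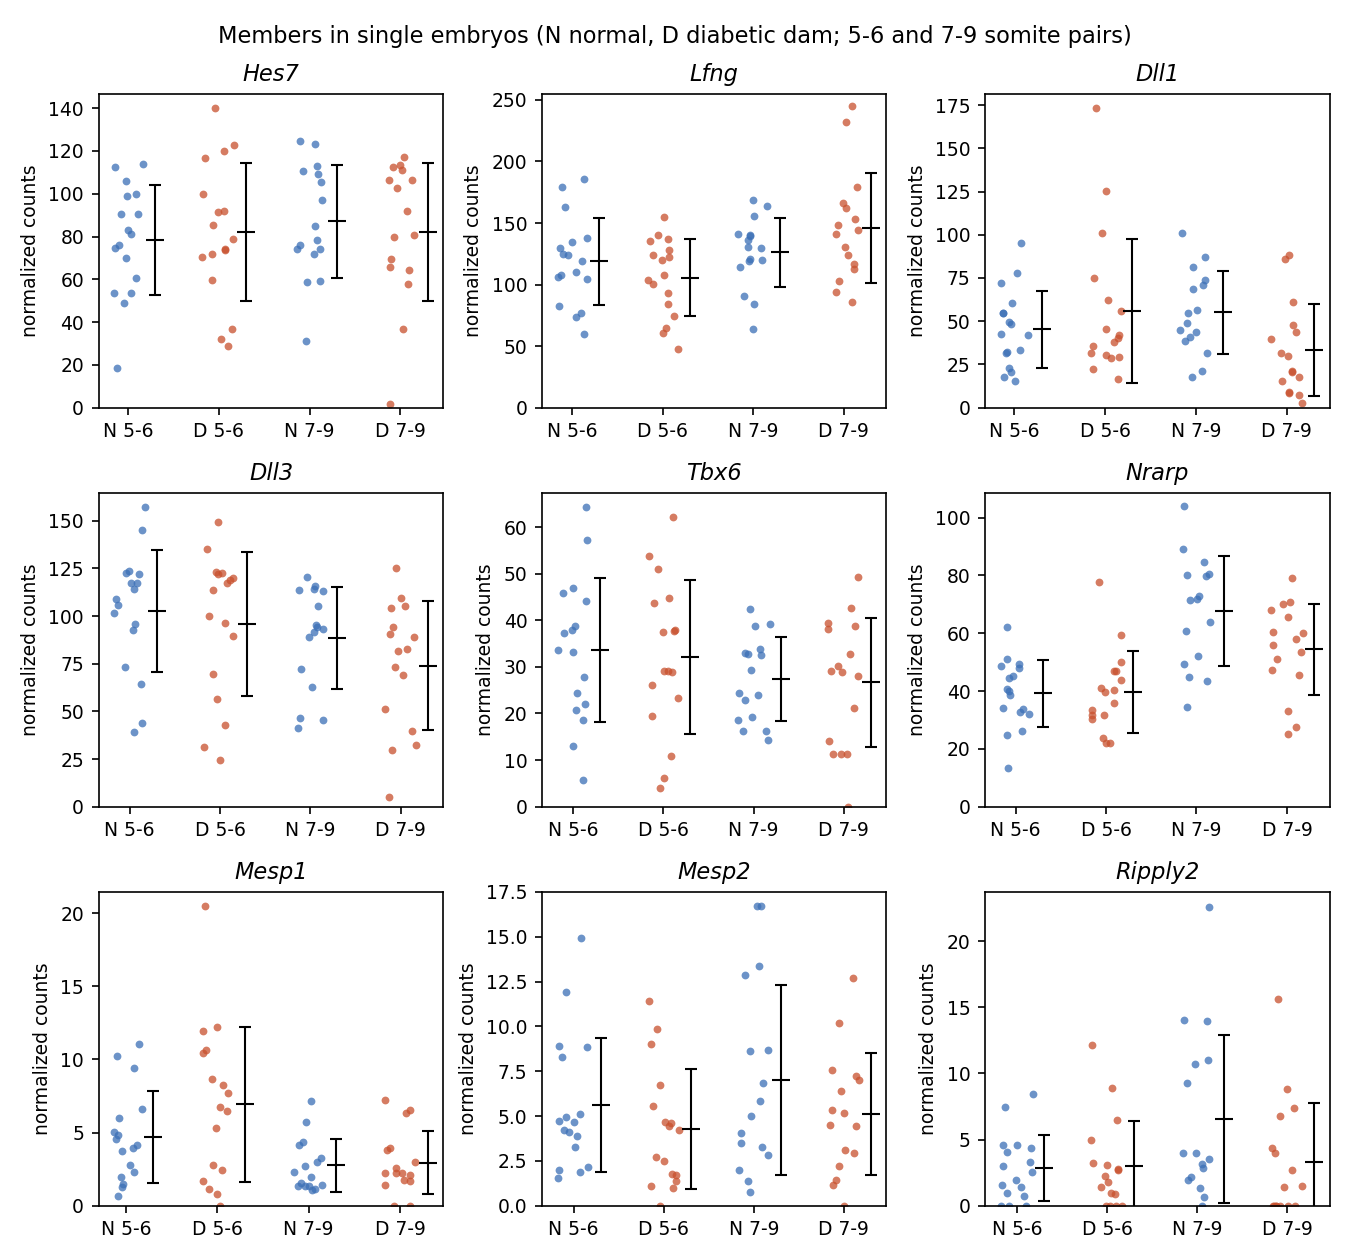
Normalized counts of 9 of the genes in single embryos; points are embryos, the horizontal mark is the mean and the bar the SD, for normal (N, blue) and diabetic (D, orange) dams at 5-6 (n = 17 each) and 7-9 somite pairs (n = 16 each). Hes7 overlapped in all 4 groups, while Nrarp was higher at 7-9 somite pairs and Dll1 reached down to 2.90 in the diabetic 7-9 group.

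No member was called as different between embryos of diabetic and normal dams (edgeR quasi-likelihood test, adjusted p under 0.05 over all genes). The count was 0 of 6 tested at 5-6 somite pairs, where 1.46% of 11004 genes were called, 0 of 6 at 7-9 somite pairs, where 9.09% of 10628 were, and 0 of 6 over all 66 embryos at equal somite number, where 4.01% of 10786 were. At an unadjusted p under 0.05 the counts of members were 0, 2 and 0, against 21%, 27.4% and 20.6% of all genes, and DESeq2 called 0 members in each. The median log2 fold change of the 6 was -0.03, -0.17 and -0.05, beside 0.00, -0.01 and 0.01 over all genes tested. Without embryo J of litter D24M15 the counts stayed at 0 at 7-9 somite pairs and over all embryos.

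Dll1, the activating ligand, had the largest difference of the 6. At 7-9 somite pairs it stood at 17.6, 51.8 and 101 normalized counts in normal embryos and at 2.90, 25.7 and 88.1 in diabetic embryos. Of the 16 diabetic embryos 5 were below every normal embryo (2.90, 7.09, 8.45, 8.94 and 15.3), while the highest were inside the normal range. The log2 fold change was -0.69 ± 0.29 (edgeR, p = 0.0240, adjusted p = 0.124). Averaged by litter, the 6 diabetic litters ranged from 12.5 to 86.2 and the 7 normal litters from 38.5 to 81.5, and the litter means of log2(normalized count + 1) differed by -0.98 (4.73 ± 1.16 against 5.71 ± 0.41, SD; two-sided exact permutation p = 0.0693, 1 of 20 such tests).

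Whether Dll1 was called at 7-9 somite pairs depended on the number after the condition letter in the embryo titles (23, 24 or 28). The labels do not give the meaning of this number. Within 28 and within 24 the diabetic mean was lower. In litters numbered 28 the 13 normal embryos had 50.3 ± 21 (SD) and the 8 diabetic embryos 20.8 ± 15 normalized counts. In litters numbered 24 the 3 normal embryos had 75.7 ± 28.4 and the 7 diabetic embryos, all from litter D24M15, had 39.7 ± 28.1. The single embryo numbered 23 was diabetic and had 86.2. Without its litter the log2 fold change was -0.85 ± 0.29 (edgeR adjusted p = 0.0515). With the title number as a covariate Dll1 was called, at a log2 fold change of -1.10 ± 0.29 (edgeR adjusted p = 0.0108, with 7.95% of all genes called lower). It was also called in the litters numbered 28 alone, at -1.19 ± 0.33 (edgeR adjusted p = 0.0324, with 2.52% called lower). Both fits took embryos as independent, and neither was run with litter as a block. At 5-6 somite pairs Dll1 was at 15.2, 42.8 and 95.1 in normal and 16.8, 40.2 and 173 in diabetic embryos, and its log2 fold change was 0.30 ± 0.26 (adjusted p = 0.546).

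Nrarp, the feedback inhibitor, was the other member under an unadjusted p of 0.05. At 7-9 somite pairs it stood at 34.6, 71.6 and 104 in normal and at 25.1, 57.0 and 79.3 in diabetic embryos, and the groups overlapped widely. Its log2 fold change was -0.31 ± 0.15 (edgeR p = 0.0435, adjusted p = 0.171). Litter means differed by -0.30 on the log2 scale (two-sided exact permutation p = 0.0385), and by -0.27 without embryo J of litter D24M15 (exact permutation p = 0.0624). It was the only 1 of the 20 litter-mean tests with p under 0.05. At 5-6 somite pairs the medians were 40.02 and 39.5.

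Among embryos with 9 somite pairs the values of both genes did not overlap between conditions. This was observed after the values were seen and was not tested. The share of all genes that separate these embryos in the same way was not computed, and some of the normal embryos were littermates. Nrarp was 71.4, 79.8, 84.8, 89.0 and 104 in the 5 normal embryos and 56, 60.6 and 70.8 in the 3 diabetic embryos. Dll1 was 38.5, 43.6, 56.4, 73.8 and 87.0 in the same normal embryos and 8.45, 20.6 and 31.4 in the same diabetic embryos.

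None of the other members was called between conditions, and 3 of them were too sparse for the main test. Lfng, the Notch-modifying enzyme, stood at 63.6, 130 and 168 in normal and 85.4, 143 and 245 in diabetic embryos with 7 to 9 somite pairs. Its log2 fold change was 0.20 ± 0.13 (adjusted p = 0.332), and it was -0.18 ± 0.14 (adjusted p = 0.502) with 5 or 6. Dll3 had log2 fold changes of -0.10 ± 0.19 and -0.26 ± 0.22 at the earlier and later stage, and Tbx6 of -0.07 ± 0.26 and -0.04 ± 0.25. With no filter on low counts, Ripply2 had -0.91 ± 0.49 (edgeR p = 0.0714, adjusted p = 0.345) at 7-9 somite pairs, where it was counted in 15 of 16 normal and 9 of 16 diabetic embryos. Mesp2 had -0.52 ± 0.36 and Mesp1 0.07 ± 0.36 in the same fit (adjusted p = 0.476 and 0.940), in which 3.92% of 27203 genes were called.

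With somite number 2 of the 6 tested members changed, Nrarp and Lfng, both upward; 25.6% of 10786 genes were called in either direction in the same fit (edgeR slope on somite number with maternal condition in the model). Nrarp had 13.3, 38.2 and 77.6 normalized counts in the 24 embryos with 5 somite pairs, 23.8, 39.8 and 50.9 in the 10 with 6, 27.6, 53.6 and 80.1 in the 11 with 7, 25.1, 58.0 and 80.5 in the 13 with 8, and 56, 75.6 and 104 in the 8 with 9. Embryos with 5 and 6 somite pairs had nearly the same median, those with 7 and 8 were close to each other, and those with 9 were highest. The slope was 0.22 ± 0.04 on the log2 scale per somite pair (adjusted p = 8.9e-06).

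Lfng rose mostly between 5 and 6 somite pairs. It had 47.7, 104 and 140 in embryos with 5 somite pairs and 120, 135 and 185 in those with 6, and then medians of 130, 129 and 138 at 7, 8 and 9, which differed by less than the spread within each somite number. The slope was 0.13 ± 0.03 per somite pair (edgeR adjusted p = 0.00394). In litters numbered 28 alone it was 0.09 ± 0.04 (adjusted p = 0.114), while that of Nrarp stayed called (6.03% of genes called higher). Both slopes were called without any 1 litter and with littermates as a correlated block.

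**Figure D2:**
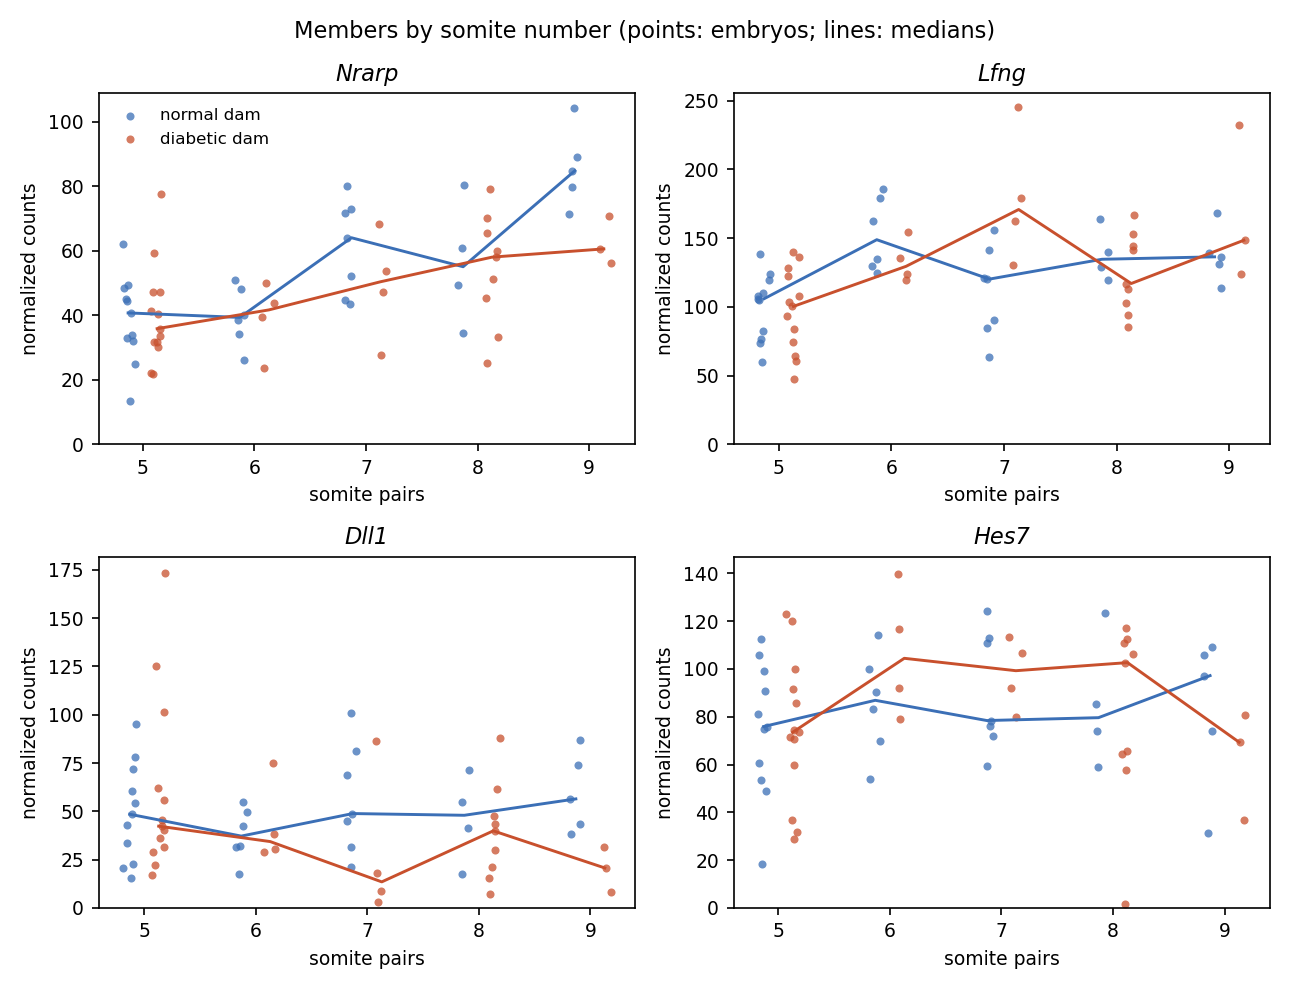
Normalized counts of Nrarp, Lfng, Dll1 and Hes7 by somite number; points are embryos of normal (blue) and diabetic (orange) dams, and lines join the medians of each condition. The Nrarp median over both conditions went from 38.2 at 5 to 75.6 at 9 somite pairs, and that of Lfng from 104 at 5 to 135 at 6; the diabetic Dll1 median was 13.4 at 7 somite pairs.

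Hes7, Dll3, Tbx6 and Dll1 were not called for somite number, with slopes of 0.03 ± 0.05, -0.07 ± 0.05, -0.06 ± 0.07 and -0.09 ± 0.07 (adjusted p of 0.754, 0.334, 0.497 and 0.352). Mesp1, which marks early mesoderm as well as the segment boundary, had medians of 4.94, 4.64, 3.01, 1.77 and 2.36 normalized counts from 5 to 9 somite pairs. Without the filter on low counts its slope was -0.31 ± 0.09 per somite pair (edgeR adjusted p = 0.0243, with 4.32% of 29711 genes called lower). Mesp2 and Ripply2 had slopes of 0.07 ± 0.09 and 0.23 ± 0.12 in that fit and were not called. The tailbud list is background here: 4 of its 8 genes fell with somite number and none rose, with 12.5% of all genes called lower, led by Cdx1 at -0.39 ± 0.06 and Nkx1-2 at -0.22 ± 0.05. One of the 4, Cyp26a1, was not called with littermates as a correlated block (adjusted p = 0.176). With the mean of that list as a covariate Hes7 was called at 0.19 ± 0.04 per somite pair (edgeR adjusted p = 0.00103, with 8.23% of genes called higher). In that fit 3 of 6 members were called. This Hes7 slope is relative to the list mean, which went with Hes7 across embryos (r = 0.88) while 4 of its 8 genes fell. It does not show a rise in the level of Hes7, whose slope without the covariate was 0.03 ± 0.05. The fit with the covariate was not repeated without embryo J of litter D24M15.

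No member was called for a difference in the slope on somite number between conditions (0 of 6, with 1.87% of 10786 genes called; DESeq2 also called 0). Dll1 was nearest, with a slope lower by 0.33 ± 0.14 per somite pair in diabetic pregnancies (edgeR p = 0.0191, adjusted p = 0.158). It was called with the title number as a covariate, at -0.49 ± 0.12 (adjusted p = 0.00801, with 6.21% of genes called lower).

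Embryos of the same somite number and condition differed strongly in 4 of the 6 tested members. For Dll1, Tbx6, Dll3 and Hes7 the variation between embryos beyond counting error, as a coefficient of variation from the edgeR dispersion, was 59.2%, 53.7%, 43.7% and 43.6%, where the trend for genes of their level was 22.3% to 25.2%. Relative to that trend they were at the 99.0, 98.0, 97.3 and 97.1 percentile of 10786 genes. Without embryo J of litter D24M15 the coefficients were 59.6%, 47.6%, 38.6% and 34.4%, at the 99.0, 96.8, 95.4 and 92.8 percentile. Lfng (23.4%) and Nrarp (27.8%) were closer to their trend values of 21.8% and 23.4%, at the 75.9 and 82.9 percentile; the median gene had a dispersion of 0.678 times its trend. For 2 embryos a repeat library was deposited: in both, the 2 counts of Hes7 (122 and 135, and 192 and 234), Tbx6 (42 and 42, and 126 and 144) and Dll1 (48 and 56, and 116 and 97) showed no difference beyond counting error (exact binomial p of 0.0656 or more for these genes).

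The spread between embryos, as the SD of log2(normalized count + 1) around the mean of each somite number and condition, was 1.02 in diabetic and 0.69 in normal embryos for Dll1 (permutation p = 0.0443, 1 of 10 genes tested). It was the only 1 of the 10 with p under 0.05, and the SD without litter D24M15 gave a permutation p of 0.104. Hes7 had SDs of 0.99 and 0.55, but 0.50 and 0.55 without embryo J of litter D24M15, and Tbx6 had 1.15 and 0.64, or 0.86 and 0.64 without it.

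Hes7, Tbx6 and Dll3 rose and fell together across the 66 embryos. After removal of the mean of each somite number and condition, Pearson's r was 0.88 for Dll3 and Tbx6 (Spearman's rho 0.79), 0.85 for Hes7 and Tbx6 (rho 0.69) and 0.83 for Hes7 and Dll3 (rho 0.72). For each pair the permutation p was 1e-05, the smallest that 100000 resamples can give, and 4.1e-05 after Benjamini-Hochberg adjustment over 45 pairs. Without embryo J of litter D24M15 the 3 values of r were 0.83, 0.76 and 0.74, after dropping the 2 embryos most distant from the first gene's median they were 0.81, 0.73 and 0.73, and within litters (59 embryos of litters with 2 or more) 0.88, 0.88 and 0.85. Embryos share depth and dams, and the permutations treat them as independent.

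**Figure D3:**
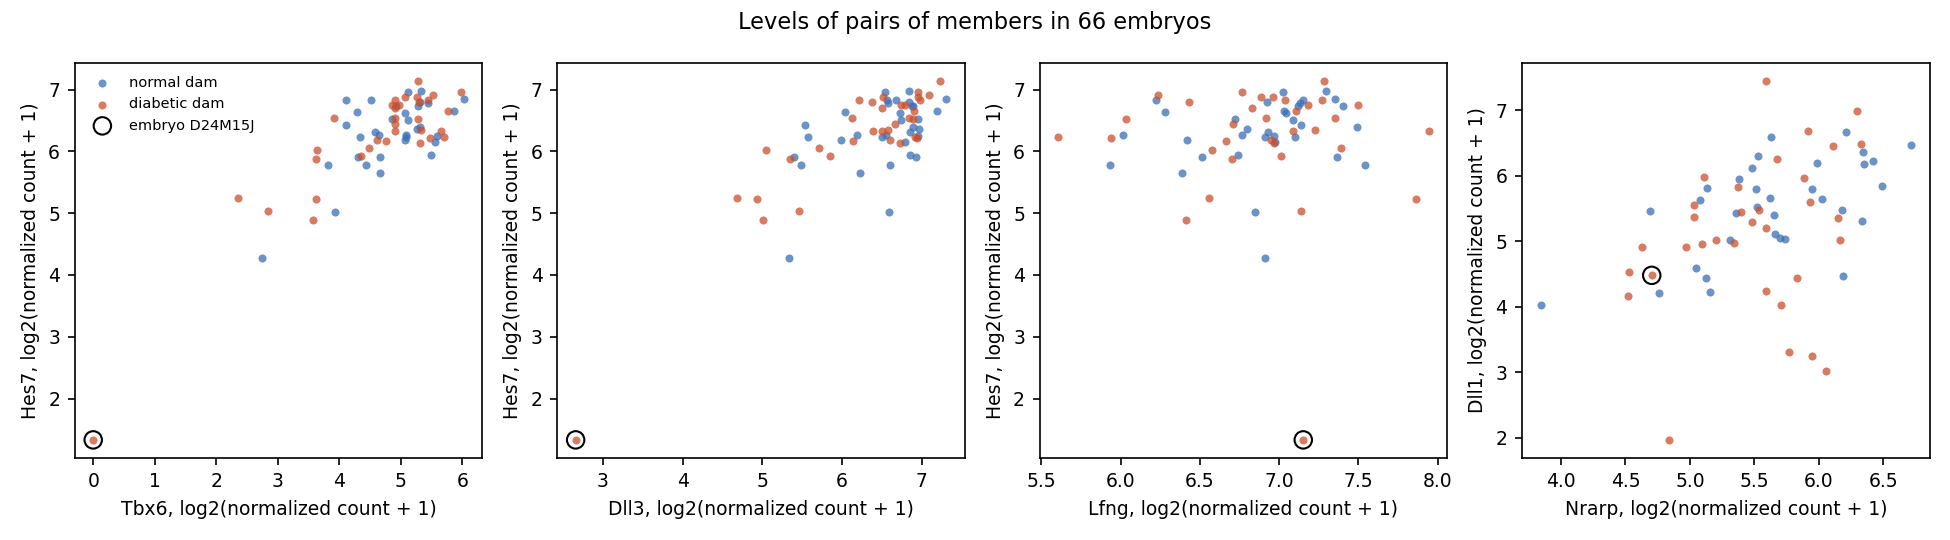
Levels of 4 pairs of genes in 66 embryos, as log2(normalized count + 1), for normal (blue) and diabetic (orange) dams; the circle marks embryo J of litter D24M15. Hes7 followed Tbx6 and Dll3 over the whole range (r = 0.85 and 0.83 of the residuals) and did not follow Lfng (r = -0.08), and Dll1 followed Nrarp (r = 0.62).

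Among 10742 other genes that averaged 10 or more normalized counts, Dll3 was the gene most correlated with Tbx6, and Hes7 was the 3rd. For Hes7, Tbx6 was the 3rd and Dll3 the 6th; without embryo J of litter D24M15 they were the 1st and the 2nd. The non-members nearest to Hes7 were Hoxb8 (r = 0.85), a Hox gene of the posterior body, Cdx2 (0.85), a regulator of posterior axis growth, and Evx1 (0.84), a homeobox gene of the primitive streak and tailbud, and without that embryo their r was 0.65, 0.65 and 0.71. Those nearest to Tbx6 were Rnf213 (0.87), Evx1 (0.82) and T (0.80), the brachyury gene of nascent mesoderm, or 0.80, 0.71 and 0.67 without it.

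The sparse boundary gene Mesp2 was nearest to Hes7, Tbx6 and Dll3 of the genes ranked (r = 0.55, 0.54 and 0.52). That order rested on embryo J of litter D24M15: without it r was 0.45, 0.43 and 0.41, and the genes were the 4th, 8th and 16th nearest. Its nearest non-members were Hoxd4 (0.49), Adarb1 (0.48) and Hoxb8 (0.47), or 0.40, 0.49 and 0.32 without it. For Mesp1 the nearest 2 genes were Tbx6 and Dll3, both at r = 0.62 (0.62 and 0.61 without that embryo). In all, 23 of the 45 pairs had an adjusted permutation p under 0.05, and 21 of these correlations were positive; without embryo J of litter D24M15 there were 20, with 18 positive.

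The mean log2 level of the 8 tailbud genes followed Hes7 (r = 0.88), Dll3 (0.86) and Tbx6 (0.80), and less so Nrarp (0.57), Mesp1 (0.51) and Dll1 (0.47). Without embryo J of litter D24M15 the first 3 values were 0.79, 0.79 and 0.70. The list mean was lowest in embryo J of litter D24M15, at 3.22, and 5.20 to 7.42 in the other 65. With the list mean removed from each gene, r fell to 0.64 for Dll3 and Tbx6, 0.49 for Hes7 and Tbx6 and 0.29 for Hes7 and Dll3, and 13 of 45 pairs were under the threshold. Mesp2 kept r = 0.51 with Hes7. These values with the list mean removed were not computed without embryo J of litter D24M15. The ratio of Dll3 to Tbx6 varied least of all 15 ratios of the 6 tested members relative to counting error: its log2 SD over 65 embryos was 0.46, and counting alone gives 0.34. The log2 ratio of Lfng to Dll1 varied most, with an SD of 1.18 against 0.31 from counting.

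**Figure D4:**
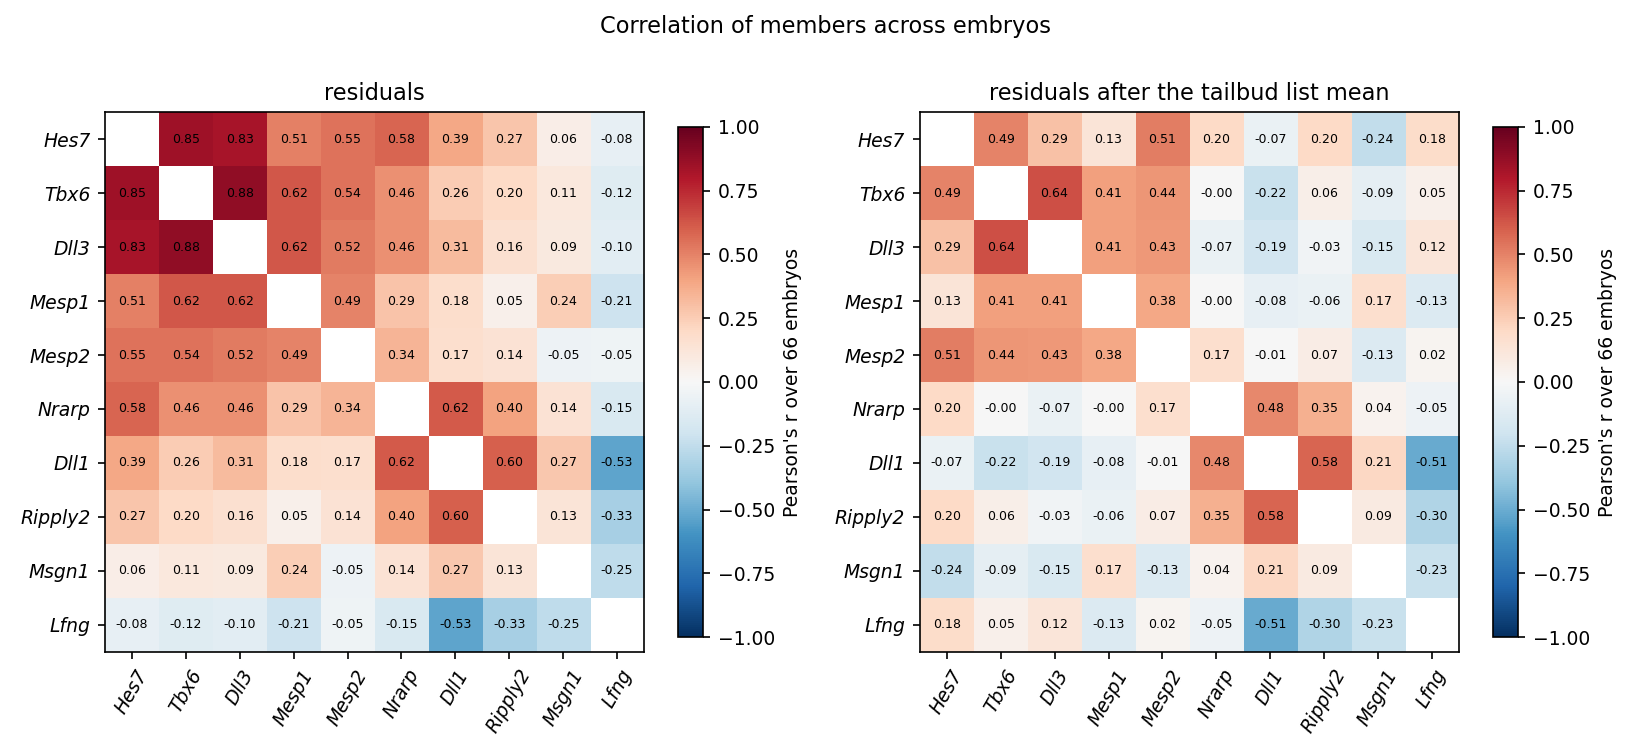
Pearson's r of the 45 pairs over 66 embryos, for residuals around somite number and condition (left) and after removal of the mean level of the tailbud list (right). Hes7, Tbx6 and Dll3 form the block of highest values (0.83 to 0.88) on the left, which drops to 0.29 to 0.64 on the right, while Dll1 and Ripply2 keep 0.58.

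Low values of the block were not limited to the embryo above. With 5 somite pairs, embryo H of normal litter N28M06 had 18.4 Hes7 and 5.71 Tbx6 normalized counts, embryo A of diabetic litter D28M37 had 37 and 4.11, embryo B of that litter had 31.9 and 6.14, and embryo B of diabetic litter D28M53 had 28.6 and 10.9. Their Lfng values were 119, 93.3, 140 and 84.2, inside the range of the rest. The tailbud list mean of the 2 embryos of D28M37 was 6.30 and 6.43 and that of embryo B of D28M53 was 5.89, against a median of 7.01 in diabetic embryos with 5 or 6 somite pairs. It was 5.20 in embryo H of N28M06, against a median of 6.64 in the normal embryos of that stage. List means near those of D28M37 also occurred without low values of the block. Embryos G and F of diabetic litter D28M23, with 6 somite pairs, had list means of 6.28 and 6.46. Their Hes7 was 79 and 92.1 and their Tbx6 28.9 and 29.2 normalized counts.

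Lfng is driven by the clock in presomitic mesoderm, but each library held every tissue of the embryo. Its level is therefore not that of presomitic mesoderm alone. Lfng showed little correlation with Hes7 (r = -0.08, rho 0.01, adjusted permutation p = 0.557), Tbx6 (-0.12) and Dll3 (-0.10). It went against Dll1 (r = -0.53, rho -0.51, adjusted permutation p = 4.1e-05) and Ripply2 (r = -0.33, adjusted permutation p = 0.0141). Its nearest non-members were Alyref (0.80), an mRNA export factor, Hemk1 (0.74), a methyltransferase, and Eef2 (0.74), the translation elongation factor. Dll1 instead went with Nrarp (r = 0.62; 0.62 within litters) and with Ripply2 (r = 0.60; 0.56 within litters).

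These last relations moved with a library-wide axis. The first principal component of 10674 genes, none of them in the lists used here, held 21.2% of the residual variance and correlated with Dll1 at r = -0.74, Ripply2 at -0.54, Lfng at 0.53 and Nrarp at -0.39, but with Hes7 at -0.03, Dll3 at 0.12 and Tbx6 at 0.14. After its removal r was -0.24 for Lfng and Dll1 (adjusted permutation p = 0.0768), 0.53 for Dll1 and Nrarp and 0.35 for Dll1 and Ripply2, while Dll1 now went with Tbx6 (0.55) and Dll3 (0.60). The component, in units of its SD over embryos, averaged 0.34 ± 1.30 (SD) in diabetic and -0.27 ± 0.86 in normal embryos with 7 to 9 somite pairs, the groups in which Dll1 differed most. The embryo with the least Dll1 (2.90 normalized counts) had the highest component, 3.23. With the component as a covariate 0 of 6 members were called in the comparisons of conditions, the same count as without it. The share of all genes called in those fits is not given here. The count of members cannot show whether the component has a part in the Dll1 values, which was not tested.

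The yolk sac has no presomitic mesoderm and served as background; its endoderm marker Afp had a median of 6104 normalized counts there and of 96.6 in embryos. In the yolk sac the 6 tested members were all lower than in the embryo (6 of 6 called, with 43.5% of 11021 genes called lower). Over all 66 yolk sac libraries the counts summed to 107 for Lfng, 100 for Hes7, 134 for Dll3, 26 for Tbx6 and 146 for Dll1, and none exceeded 12 in a library. The log2 fold changes were -6.0 ± 0.12, -5.50 ± 0.16, -5.26 ± 0.15, -5.73 ± 0.22 and -4.20 ± 0.19. Mesp1, Mesp2 and Ripply2 had 2, 5 and 3 counts in total, and Msgn1 had 0; without the filter on low counts all 10 were called lower, with 31.3% of genes called lower.

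Nrarp was the exception. It was counted in all 66 yolk sacs, at 14.8, 36.9 and 73.4 (lowest, median and highest) normalized counts on a scale shared by both tissues, against 12.6, 44.5 and 97.6 in embryos. The ranges overlapped nearly completely, and the log2 fold change was -0.21 ± 0.08 (edgeR adjusted p = 0.0136; 0.0212 without the filter on low counts).

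**Figure D5:**
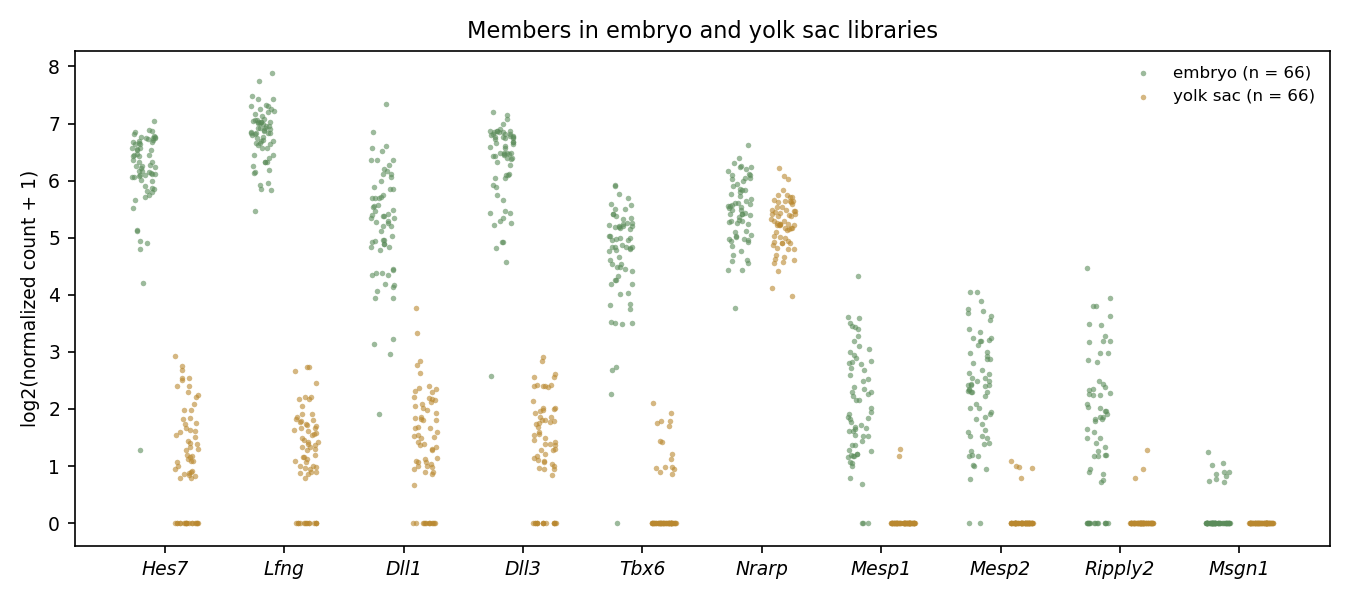
Levels of the 10 genes in 66 embryo and 66 yolk sac libraries, as log2(normalized count + 1) with size factors over both tissues; points are libraries. Nrarp had medians of 44.5 in embryos and 36.9 in yolk sacs. The highest yolk sac values of Dll1 (12.7), Hes7 (6.62), Dll3 (6.52) and Tbx6 (3.31) reached the lowest embryos (2.78, 1.42, 4.96 and 0). For Hes7, Dll3 and Tbx6 the lowest was embryo J of litter D24M15, and the next lowest embryos had 17.4, 22.9 and 3.82. Mesp1, Mesp2, Ripply2 and Msgn1 overlapped as well, with embryos at 0.

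Of 21 other Notch pathway genes, the receptors, ligands, modifiers and targets, 17 were tested at 5-6 and 18 at 7-9 somite pairs. In these fits 1.46% and 9.09% of all genes were called, in that order. At 5-6 somite pairs 1 was called, Ncstn, a subunit of the protease that cleaves Notch, which rose by 0.64 ± 0.16 on the log2 scale in diabetic embryos (edgeR adjusted p = 0.0331; 0.200 with littermates as a correlated block). At 7-9 somite pairs 2 were called, both lower in diabetic embryos: Jag1, a Notch ligand, at -0.49 ± 0.15 (adjusted p = 0.0323; 0.0548 with the block), and Mib1, the ubiquitin ligase that activates the Notch ligands, at -0.33 ± 0.09 (adjusted p = 0.0199; 0.0547 with the block). The median of the list was -0.01 and -0.13 at the 2 stages, beside 0.00 and -0.01 over all genes. Mib1 was also called for a slope lower in diabetic pregnancies, by -0.19 ± 0.04 per somite pair (adjusted p = 0.0205).

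Of the 10 Wnt and FGF genes of the clock, 1 was called at each stage, beside 1.46% of all genes at 5-6 and 9.09% at 7-9. Spry4, an FGF feedback inhibitor, was higher in diabetic embryos at 5-6 somite pairs (1.01 ± 0.28, edgeR adjusted p = 0.0495; 0.212 with the block), and Lef1, the nuclear partner of beta-catenin, was lower at 7-9 (-0.41 ± 0.12, adjusted p = 0.0288; 0.0905 with the block). Both also had a lower slope on somite number in diabetic pregnancies, of -0.45 ± 0.12 and -0.25 ± 0.07 per somite pair (adjusted p = 0.0360 for each; 0.0559 and 0.0309 with the block). The mean of this list was the list level that Dll1 followed most closely (r = 0.85).

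None of the 8 tailbud or 9 tested forming-somite genes was called between conditions at either stage. The tailbud median log2 fold change was 0.33 at 5-6 and -0.18 at 7-9 somite pairs. In the neural list Sox2 was called over all embryos, at -0.24 ± 0.07 (edgeR adjusted p = 0.0255; 0.167 with the block), and in the cardiac list the myosin light chain gene Myl7 was called at 7-9 somite pairs, at 0.69 ± 0.12 (adjusted p = 0.000701; 0.00878 with the block), and for a slope higher in diabetic pregnancies, at 0.33 ± 0.09 (adjusted p = 0.0498; 0.0501 with the block).

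With somite number 5 of 17 tested Notch pathway genes changed, beside 25.6% of all genes: 3 rose (Hes5, a Notch target of neural tissue, at 0.17 ± 0.04 per somite pair, Notch3 at 0.10 ± 0.03 and Rfng at 0.09 ± 0.03) and 2 fell (Numb, a Notch antagonist, at -0.13 ± 0.03, and Mib1 at -0.09 ± 0.02). Of the Wnt and FGF genes Sp5 (-0.21 ± 0.03), Spry4 (-0.20 ± 0.07) and Dkk1 (-0.18 ± 0.04) fell and Nkd1 (0.11 ± 0.02) rose, 4 of 10 tested. With littermates as a correlated block the slope of Spry4 was -0.12 (adjusted p = 0.192). Of 8 tested forming-somite genes 4 rose, the paraxial mesoderm regulators Tcf15 (0.27 ± 0.07) and Meox1 (0.18 ± 0.04) with Tbx18 and Pcdh8, and Epha4 fell (-0.08 ± 0.02); with the block Tbx18 had an adjusted p of 0.0990. In the cardiac list 4 of 5 genes rose (median slope of the list 0.20), and in the erythroid list, which marks blood cells, 3 of 3 tested genes rose (median 1.42). The rise of Nrarp per somite pair was larger than that of any of the 5 called Notch pathway genes in these values, with no test of that difference.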

How the data were processed

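Total RNA of embryos and yolk sacs was made into 3′ tag libraries with unique molecular identifiers (Lexogen QuantSeq FWD). The authors deposited 1 table of raw UMI counts per gene for 136 libraries; the processing notes name STAR, HTSeq and mm10, with no versions or settings given in the sources used here. Members were matched by symbol. The members and lists were chosen with earlier results of these data known.

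Counts were tested with edgeR 4.0.16 (TMM, minimum count of 10 in filterByExpr, quasi-likelihood F test, Benjamini-Hochberg adjustment, adjusted p under 0.05); limma 3.58.1 and DESeq2 1.42.0 served for alternatives, and the functions were tested on simulated data. Embryo libraries held 1330731 to 5658850 and yolk sac libraries 1017901 to 3888137 counts; 4 repeat libraries were left out of the tests. For levels, each library's counts were scaled by its DESeq2 size factor, estimated over the 66 embryos (for tissues, over embryos and yolk sacs); logs are log2(normalized count + 1). Embryos were taken as independent in edgeR. Littermates correlated at 0.13 to 0.25 in limma, and litter means were compared by exact permutation. Genes of the lists were named if they were themselves called between conditions, or as up to 5 called genes with the largest slopes in a list. The 3 non-members most correlated with Hes7, Lfng, Mesp2 or Tbx6 were named too. The tailbud genes of embryo J of litter D24M15 were named after their values were seen. Promoters are RefSeq's (GRCm38.p6), found for all 10 members. Alternatives included the title number, sex, litter, filters and, chosen after seeing the data, the component, the tailbud mean and leaving out that embryo.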

Additional observations from a re-analysis of the deposited data

Results flagged for a closer look

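Groups of 4 to 10 embryos of 1 somite number and condition gave 67 tested sets of values. In 7 of them the gap from the highest embryo to the next was large for the group's range. The rate of about 1 in 20 expected by chance does not hold for genes with few counts. Where 1 embryo has a count and the others 0, the gap is the whole range. All 7 were high values of sparse genes. Mesp1 was 7.26 normalized counts (5 counts) in embryo C of diabetic litter D28M36 with 7 somite pairs, where the next embryo had 3.01, 2.98 (3 counts) in embryo E of normal litter N28M05 with 8, and 7.15 (9 counts) in embryo H of normal litter N28M07 with 9. Ripply2 was 22.6 (21 counts) in embryo E of normal litter N28M07 with 9 somite pairs, where the next embryo had 3.97. Msgn1 was 0.695, 1.12 and 1.46 in embryos D28M02G, D24M15H and N28M30I, from 1 or 2 counts, where the others of their groups had 0.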

How the results depend on the processing

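The number of members called stayed at 0 for the comparisons of conditions and 2 for somite number when any 1 litter was left out. It was 1 in place of 0 (Dll1) at 7-9 somite pairs with the title number as a covariate and in litters numbered 28 alone, 1 in place of 0 (Dll1) for the difference in slope with the title number, 1 in place of 2 for somite number in litters numbered 28, and 10 in place of 6 for the yolk sac without the filter. The conceptus as a replicate block, which pairs each embryo with its own yolk sac, called 6. The share of all genes called in that fit is not given here. Concepti D28M27C and N28M07E carry different sex labels for embryo and yolk sac, and their pairing was not tested. Litter-mean tests under 0.05 numbered 0 in place of 1 without embryo J of litter D24M15, and spread tests 2 in place of 1 at a pseudocount of 0.5 and 0 at 5 or without litter D24M15. Pairs under the threshold numbered 13 in place of 23 after the tailbud mean, and r turned negative for 5 of the 23: -0.066 for Hes7 and Dll1, -0.19 for Dll1 and Dll3, -0.066 for Dll3 and Nrarp, -0.0036 for Mesp1 and Nrarp and -0.00035 for Tbx6 and Nrarp.

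No called fold change, slope or SD ratio changed sign. Of 72 sign changes of fold changes and slopes not called, 59 were within 1 SE of the value as reported, 37 of them on leaving out a litter; the other 13 follow, with those of the SD ratios. With the tailbud mean as a covariate the log2 fold change at 5-6 somite pairs became -0.18 for Dll1, -0.24 for Hes7 and -0.19 for Nrarp, at 7-9 it became 0.18 for Hes7 and 0.23 for Tbx6, the difference in slope became 0.12 for Dll3, 0.15 for Hes7 and 0.22 for Tbx6, and the slope became 0.053 for Dll1, 0.10 for Dll3 and 0.13 for Tbx6. Over all embryos Lfng became -0.022 in litters numbered 28 and Tbx6 -0.26 with litter as a block. The log2 SD ratio became -0.14 for Hes7, -0.0053 for Ripply2 and -0.041 for Nrarp without litter D24M15, -0.12 for Hes7 without embryo J, 0.087 for Mesp2 at a pseudocount of 0.5 and -0.035 for Ripply2 at 5. The causes were not tested. Counts of 10 or fewer limit Mesp1, Mesp2, Ripply2 and Msgn1 in most embryos.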
